A study of Homo sapiens with 12 samples.

Results

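The 10 genes described here are regulators and markers of the epithelial-mesenchymal transition (EMT), chosen by their symbols: the transcription factors ZEB1, ZEB2, SNAI1, SNAI2, TWIST1 and TWIST2, the mesenchymal markers VIM and FN1, and the epithelial markers EPCAM and KRT18. They are 10 of the 20708 genes to which array probes were assigned, and 115 probes matched them. The cells were MDA-MB-231, an established human breast cancer cell line, and RNA levels were read on 12 one-color exon arrays, 3 in each of 4 groups. All cells received a miRNA precursor (or its negative control) at 5 nM and a Dicer-substrate siRNA (or its negative control) at 500 pM, with 72 h of silencing. The group cntrl received both control oligonucleotides, mimic145 the miR-145-5p mimic, sirnaAGO2 the siRNA against AGO2, and sirnaAGO2+mimic145 the mimic and the siRNA. The labels do not say whether the replicates came from separate cultures, so the p-values measure the spread between these arrays. A transient transfection of 1 cell line is the model, and a mean over a culture does not tell a change in every cell from a change in some cells.

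In EMT, epithelial cells lose their junctions and gain a migratory, mesenchymal state, and carcinoma cells can occupy states in between. Factors of the ZEB, SNAI and TWIST families drive it, mainly by repressing epithelial genes such as CDH1 (E-cadherin) through E-box motifs. MDA-MB-231 is widely used as a model of a mesenchymal-like breast cancer cell. A miRNA is loaded on an Argonaute protein and pairs through its seed with sites in mRNAs, most often in their 3′ untranslated regions, and AGO2 is the human Argonaute that can cut its target.

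The mimic stands for miR-145-5p, whose gene lies on chromosome 5. The mature RNA is printed because its seed is the part that selects targets; it occupies chr5:149430661-149430683 on the plus strand of GRCh38.p14 (sequence from RefSeq), and capitals mark the seed, bases 2 to 8.
hsa-miR-145-5p: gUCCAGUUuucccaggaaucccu
An mRNA site that pairs with the whole seed reads AACUGGA. Such sites in the 10 genes were not analysed here.

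A value is the log2 of the quantile normalized signal, averaged over the kept probes of a gene; probes differ in brightness, so levels are compared between groups and not between genes. A probe was kept if 1 or more groups had it well above background on each of their 3 arrays. A stricter filter, named where it matters, required this of all 12 arrays. Of the 115 probes, 106 (92.2%) were kept, and 9 of the 10 genes were tested. FN1 had 50 kept probes, KRT18 13, ZEB1 11, VIM 9, EPCAM 9, ZEB2 6, SNAI2 4, SNAI1 3 and TWIST1 1. Neither of the 2 probes of TWIST2, a basic helix-loop-helix factor like TWIST1, was well above background on any array, and TWIST2 was not tested.

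Groups were compared in 1 limma model of all 12 arrays, blocked by replicate number, and a gene was called changed at a Benjamini-Hochberg adjusted p (two-sided, across the 18253 genes tested) under 0.05. Per array, 60.5% to 77.3% of spots exceeded background clearly. In replicates 1, 2 and 3 the share was 71.6%, 67.6% and 73.4% in cntrl and 66.7%, 61.6% and 77.3% in mimic145. It was 71.0%, 69.1% and 74.1% in sirnaAGO2 and 67.9%, 60.5% and 70.8% in sirnaAGO2+mimic145. Over all genes the standard error of a log2 difference had a median of 0.10. Among the other settings tried were scaling each array to its 75th percentile, normexp (a model-based background correction), the authors' own normalized table, and the median over probes. That median was taken over the probe signals of each array, so it follows the probes of middle brightness and is not the median of the probe differences. The number of arrays limits the precision. AGO2, the gene targeted by the siRNA, had a log2 signal of 9.21, 9.14 and 9.01 in the 3 cntrl arrays and of 8.35, 8.44 and 8.42 in the 3 sirnaAGO2 arrays. No sirnaAGO2 array reached the lowest cntrl array, and the log2 difference was -0.71 (adjusted p = 0.00491, limma). An exact permutation test, two-sided, gave p = 0.1, the smallest value possible with 3 arrays against 3. Silencing left 61.0% of the AGO2 signal, and 48.1% when the mimic was present in both groups compared. With control siRNA, AGO2 was itself higher with the mimic, at 9.44, 9.36 and 9.39 (log2 difference 0.28, adjusted p = 0.0298, limma), a call that held under 12 of 26 alternatives. It was lost with 75th percentile scaling (adjusted p = 0.0669), the median over probes (0.196), a random block for the slide (0.0567), no replicate block (0.0612), only the arrays compared (0.108) and the methods' t-test (0.207). It was also lost without replicate 1 (0.123), 2 (0.124) or 3 (0.156), and without replicate 2 (0.0768) or 3 (0.102) of cntrl or replicate 1 (0.112), 2 (0.0524) or 3 (0.0763) of mimic145. Of 8 luminal breast markers, PGR and FOXA1 had no kept probe, while ESR1 had 6 kept of 14. Of 5 leukocyte markers, CD14 (1 kept probe, named after its values were seen) rose with the mimic, by 0.37 on the log2 scale in control cells and by 1.01 in silenced cells, and of 4 endothelial markers KDR did, by 0.26 and 0.66. The summed signal of the 5 leukocyte markers ran from 40189 to 69989 in cntrl, 52390 to 62298 in mimic145, 46124 to 73127 in sirnaAGO2 and 47462 to 67438 in sirnaAGO2+mimic145, and the sums of the 4 endothelial markers from 7670 to 9330, 8179 to 9506, 8041 to 8296 and 8155 to 10873. The ranges of each mimic group and its own control overlapped, which does not show that each marker stayed the same. The part of these markers in the results was not tested.

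The first question was what the mimic changed in cells with AGO2 left intact. ZEB2, FN1 and KRT18 rose, EPCAM and SNAI2 fell, and ZEB1, SNAI1, TWIST1 and VIM did not pass the test. Thus 5 of the 9 tested genes were called, where 22.6% of all genes were. The median log2 difference of the 9 genes was 0.06, beside 0.01 over all genes. The methods' t-test, which pools no spread across genes, called 0 of the 9 after adjustment and 4 at an unadjusted p under 0.05. After adjustment it called 0 of all 18253 genes in every comparison, so its 0 is no result about the 9. Before adjustment, 3869 of all genes had a p under 0.05 here. The 5 called genes did not divide by class, since 1 epithelial marker fell and the other rose.

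**Figure D1:**
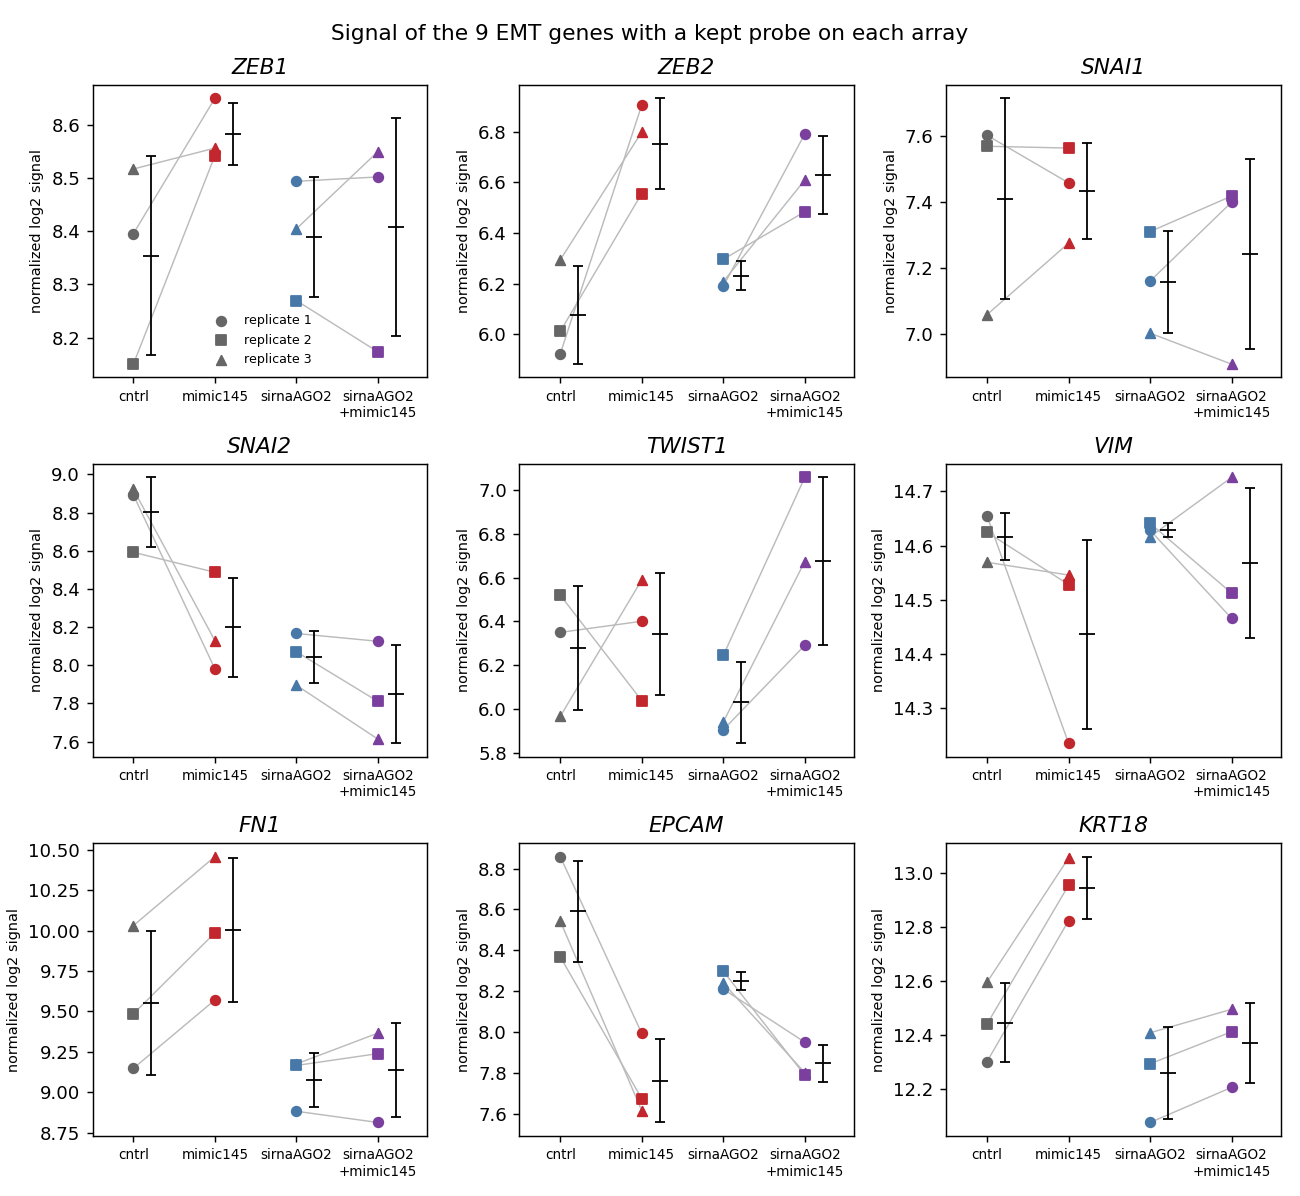
Normalized log2 signal of each array for the 9 genes with a kept probe, in the 4 groups (symbols for replicates 1 to 3, gray lines joining arrays of a replicate number with and without the mimic, black marks for the mean and SD of 3 arrays). EPCAM is lower on every mimic145 array than on every cntrl array and KRT18 is higher, while the groups overlap for SNAI1 and TWIST1; the vertical scales differ between genes.

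EPCAM encodes an adhesion molecule of epithelial cells. Its log2 signal was 8.86, 8.37 and 8.54 in the cntrl arrays of replicates 1, 2 and 3, and 7.99, 7.67 and 7.62 in the mimic145 arrays. Every mimic145 array lay below every cntrl array. The log2 difference was -0.83 ± 0.10 (SE; 95% interval -1.06 to -0.59; adjusted p = 0.000902, limma), which leaves 56.3% of the signal. Of its 9 kept probes 8 were lower, by -0.82 to -1.26, and 1 was higher by 0.51. Where the median over probes of each array replaced the mean, the difference was -0.34 and no longer passed (adjusted p = 0.0965, limma). The median of the 9 probe differences was -0.95.

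KRT18 encodes a keratin of simple epithelia that pairs with keratin 8. Its log2 signal was 12.30, 12.44 and 12.60 in cntrl and 12.82, 12.96 and 13.06 in mimic145. The groups did not overlap, and the 3 replicate pairs rose by 0.52, 0.51 and 0.46. All 13 probes were higher, and the mean log2 difference was 0.50 ± 0.06 (SE; 95% interval 0.37 to 0.63; adjusted p = 0.000637, limma). KRT18 has processed pseudogenes elsewhere in the genome, and a share of the signal from them was not tested. KRT8, the gene of its partner keratin, differed by 0.08 (95% interval -0.21 to 0.37; adjusted p = 0.694, limma). Its probes disagreed: 9 of 13 were higher and 4 lower, from -0.79 to 0.57, with a median of 0.22. The interval does not show that KRT8 stayed the same.

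ZEB2 encodes a zinc finger repressor of epithelial genes. Its log2 signal was 5.92, 6.01 and 6.29 in cntrl and 6.90, 6.56 and 6.80 in mimic145. The groups did not overlap, and the rise was steepest in replicate 1. Its log2 difference was 0.68 ± 0.12 (SE; 95% interval 0.41 to 0.94; adjusted p = 0.00407, limma), with 5 of 6 probes higher. ZEB2 was dim: 2 of its 10 probes were well above background on all 12 arrays. With normexp background correction the difference was 0.37, and without replicate 1 it was 0.52 (adjusted p = 0.0547, limma). The related repressor ZEB1 measured 8.40, 8.15 and 8.52 in cntrl and 8.65, 8.54 and 8.56 in mimic145. Its groups did not overlap and all 11 probes were higher, but the log2 difference of 0.23 ± 0.08 (SE) missed the threshold (adjusted p = 0.0779, limma). ZEB1 passed with 75th percentile scaling (adjusted p = 0.0451), normexp (0.0337) and the stricter filter (0.0197).

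FN1 encodes fibronectin, a protein of the extracellular matrix. Its log2 signal was 9.15, 9.49 and 10.03 in cntrl and 9.57, 9.99 and 10.46 in mimic145. The groups overlapped, because the level differed between replicate numbers, but each replicate pair rose, by 0.42, 0.50 and 0.43. On average FN1 rose by 0.45 ± 0.12 (SE; 95% interval 0.18 to 0.72; adjusted p = 0.0264, limma), and 49 of 50 probes were higher. The remaining probe was lower by -0.75. Without the replicate block, FN1 did not pass (adjusted p = 0.311, limma). The call was also lost without replicate 1 (adjusted p = 0.127, limma) or replicate 2 (0.142), and on leaving out 1 array it was lost without replicate 1 of cntrl (0.0971), replicate 2 of cntrl (0.104) or of mimic145 (0.0547), or replicate 3 of mimic145 (0.10).

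VIM encodes vimentin, the intermediate filament protein of mesenchymal cells. Its log2 signal was 14.65, 14.62 and 14.57 in cntrl and 14.24, 14.53 and 14.55 in mimic145. All mimic145 arrays lay below all cntrl arrays, by little in replicates 2 and 3. The log2 difference of -0.18 ± 0.09 (SE) did not pass (adjusted p = 0.198, limma). A single probe was lower by -1.09, and the other 8 differed by -0.17 to 0.03. With the median over probes of each array the difference was 0.03, and the median of the 9 probe differences was -0.06.

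SNAI2 encodes Slug, a zinc finger repressor of CDH1. Its log2 signal was 8.89, 8.59 and 8.92 in cntrl and 7.98, 8.49 and 8.13 in mimic145. The groups did not overlap, although replicate 2 differed little. The mean log2 difference was -0.60 ± 0.16 (SE; 95% interval -0.98 to -0.23; adjusted p = 0.0292, limma). All 4 probes were lower, but not to the same degree. The lowest differed by -1.22 and the others by -0.41 to -0.39, with a median of -0.40. The call rested on replicates 1 and 3: the adjusted p was 0.162 without replicate 1 and 0.193 without replicate 3 (limma). On leaving out 1 array it was 0.0879 without replicate 1 of cntrl, 0.109 without replicate 1 of mimic145, 0.121 without replicate 3 of cntrl and 0.0745 without replicate 3 of mimic145 (limma). With the arrays of cntrl and mimic145 alone it was 0.0896 (limma). The stricter filter, which kept 2 of the 4 probes, gave a difference of -0.40.

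SNAI1, which encodes the related repressor Snail, differed by 0.02 ± 0.09 (SE; 95% interval -0.17 to 0.22), and 1 of 3 replicate pairs was higher. TWIST1 differed by 0.06 ± 0.21 (SE; 95% interval -0.42 to 0.54) on its 1 kept probe, with replicate pairs between -0.48 and 0.62. CDH1, repressed by several of these factors, differed by -0.08 (adjusted p = 0.444, limma). Of the 16 probes of CDH1, 7 were kept and 7 were well above background on no array. CDH2, the gene of N-cadherin of mesenchymal cells, differed by 0.11 (adjusted p = 0.287, limma). Of the 17 probes of CDH2, 3 were kept and 11 were well above background on no array. For SNAI1, TWIST1, CDH1 and CDH2 the intervals do not show that the level stayed the same.

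**Figure D2:**
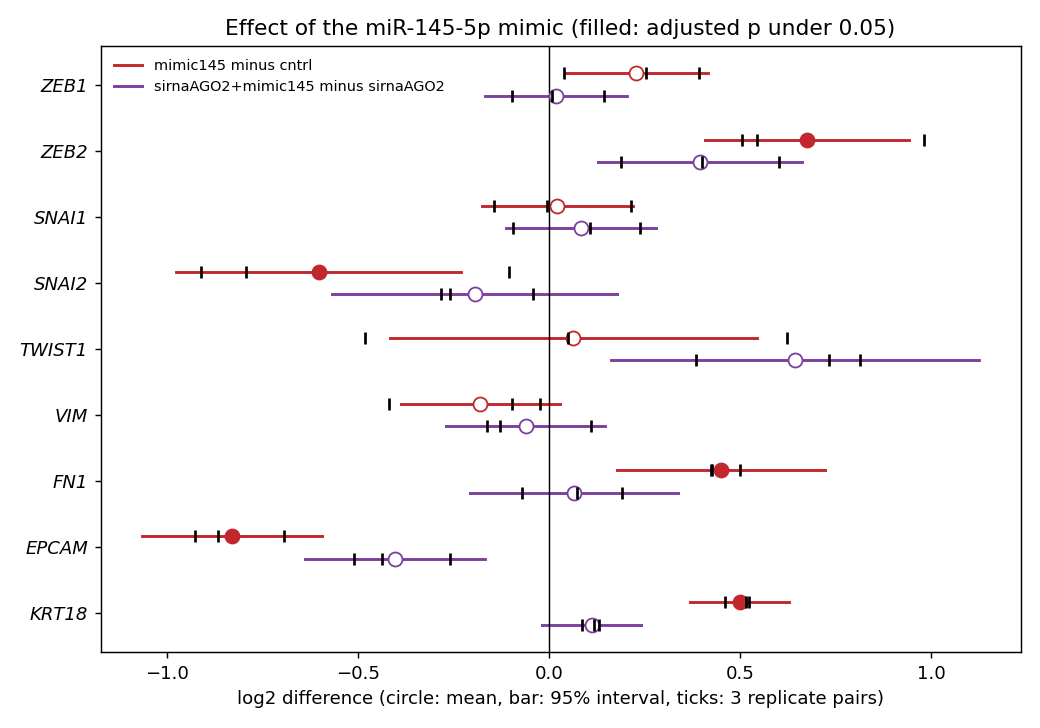
Log2 difference with the miR-145-5p mimic for 9 genes, in cells with control siRNA (red) and with AGO2 siRNA (purple); circles are means, filled where the adjusted p was under 0.05, bars the 95% interval and ticks the 3 replicate pairs. ZEB2, FN1 and KRT18 lie above 0 and SNAI2 and EPCAM below 0 in red, and no purple circle is filled.

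The second question was what the mimic changed once AGO2 was silenced. None of the 9 genes passed in limma, where 7.28% of all genes did, and 3 of the 9 had an unadjusted p under 0.05. The methods' t-test called 0 after adjustment and 3 before it. Of all 18253 genes, 5262 had an unadjusted p under 0.05 in limma and 2601 in the t-test. ZEB2 measured 6.19, 6.30 and 6.21 in sirnaAGO2 and 6.79, 6.48 and 6.61 in sirnaAGO2+mimic145. These groups did not overlap. The log2 difference of ZEB2 was 0.40 (95% interval 0.13 to 0.66; adjusted p = 0.0712, limma). It passed with 75th percentile scaling (0.71, adjusted p = 0.0138), normexp (0.24, 0.0385), the authors' table (0.47, 0.0291) and the stricter filter (0.59, 0.0104).

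EPCAM measured 8.21, 8.30 and 8.24 in sirnaAGO2 and 7.95, 7.79 and 7.80 in sirnaAGO2+mimic145, again without overlap. The log2 difference was -0.40 (95% interval -0.64 to -0.17), just outside the threshold (adjusted p = 0.0508, limma). It was -0.52 and passed without replicate 1 of sirnaAGO2 (adjusted p = 0.0432, limma), -0.45 and passed with no filter on dim probes (0.0366), -0.20 with normexp, -0.13 with the stricter filter, and 0.14, the opposite direction, with the median over probes. The probe that rose in cells with AGO2 rose here too, by 0.68. Of the 9 probes 8 were lower, and the median of the 9 probe differences was -0.22.

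TWIST1, a helix-loop-helix factor of mesoderm development, measured 5.90, 6.24 and 5.94 in sirnaAGO2 and 6.29, 7.06 and 6.67 in sirnaAGO2+mimic145. All 3 arrays with the mimic were higher. The log2 difference was 0.64 (95% interval 0.16 to 1.13; adjusted p = 0.0916, limma) on its 1 kept probe. It passed with normexp (0.38), the authors' table (0.74) and no filter (0.42), without replicate 1 of sirnaAGO2+mimic145 (0.84, adjusted p = 0.0452, limma) and without replicate 2 of mimic145 (0.64, 0.0378).

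KRT18 and FN1, both higher with the mimic in control cells, differed here by 0.11 (95% interval -0.02 to 0.24) and 0.06 (95% interval -0.21 to 0.34). SNAI2 differed by -0.19 (95% interval -0.57 to 0.18), SNAI1 by 0.08, ZEB1 by 0.02 and VIM by -0.06. The smallest adjusted p of SNAI2, KRT18, FN1, SNAI1, ZEB1 and VIM was 0.230 (limma), and their groups overlapped.

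**Figure D3:**
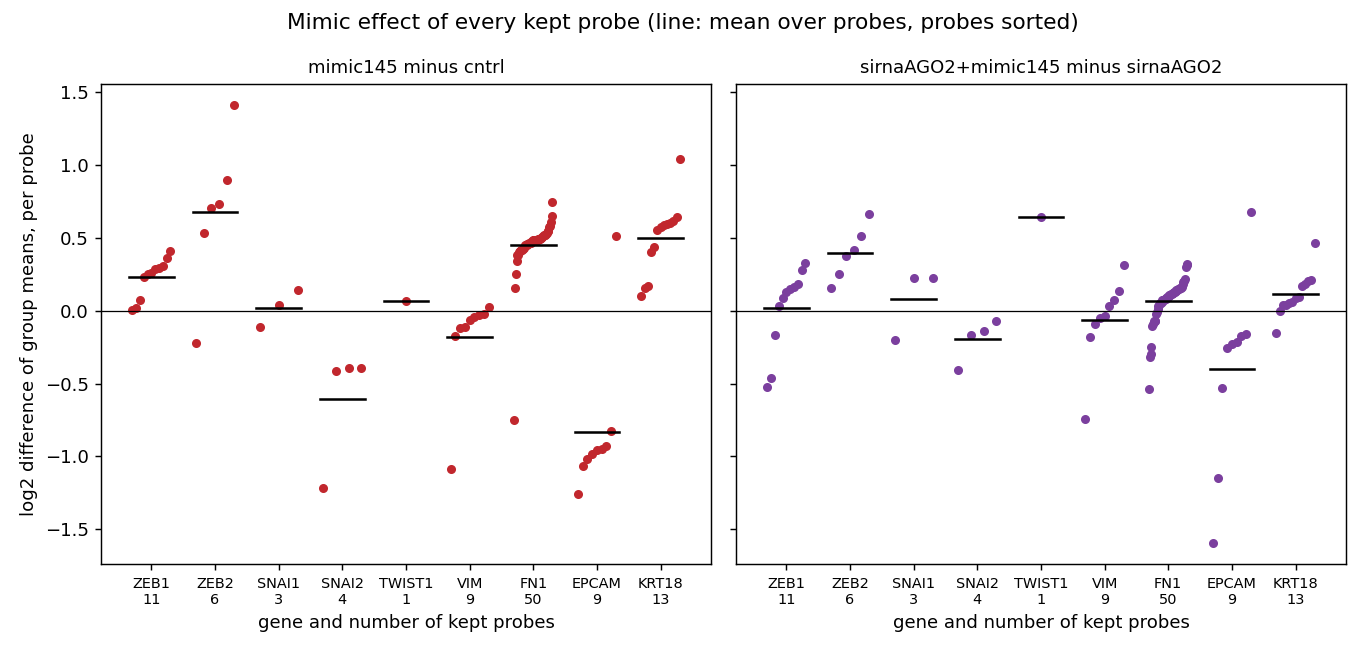
Log2 difference of group means for every kept probe, sorted within each gene, for the mimic in cells with control siRNA (left) and with AGO2 siRNA (right); black lines are the means over probes. In the left panel all 13 KRT18 probes and 49 of 50 FN1 probes lie above 0, and 1 EPCAM probe lies apart from the other 8.

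Whether the effect of the mimic differed between the 2 siRNA arms was tested as the difference of the differences. No gene of the 9 passed (2 of all 18253 genes, 0.011%, did, limma), and 3 of the 9 had an unadjusted p under 0.05. The methods' t-test called 0 after adjustment and 2 before it. Over all genes, 3061 had an unadjusted p under 0.05 in limma and 1888 in the t-test. The smallest adjusted p was that of KRT18, 0.0888 (limma), with a difference of -0.39 (95% interval -0.57 to -0.20). The 3 replicates gave -0.39, -0.40 and -0.37. The KRT18 difference passed with normexp (-0.38, adjusted p = 0.0460, limma) and with the stricter filter (-0.39, 0.0428), and was -0.58 with the median over probes (0.120). EPCAM differed by 0.43 (95% interval 0.09 to 0.76; adjusted p = 0.214, limma) and FN1 by -0.39 (95% interval -0.77 to -0.00; adjusted p = 0.297, limma). SNAI2 differed by 0.41 (95% interval -0.12 to 0.94). The 2 mimic comparisons share no arrays, and a call in cells with AGO2 without one in silenced cells does not show that the effects differ.

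The third question was what silencing AGO2 changed by itself. No gene of the 9 passed in limma, where 2.58% of all genes did, and 5 had an unadjusted p under 0.05. In the methods' t-test 0 passed after adjustment and 2 before it. Of all 18253 genes, 3466 had an unadjusted p under 0.05 in limma and 3187 in the t-test. SNAI2 was nearest: it measured 8.17, 8.07 and 7.90 in sirnaAGO2, below all the cntrl arrays, a log2 difference of -0.76 (95% interval -1.13 to -0.38; adjusted p = 0.05004, limma, just over the threshold), with all 4 probes lower. SNAI2 passed under 8 of 25 alternatives, among them the authors' table (adjusted p = 0.0206, limma), 75th percentile scaling (0.0344), normexp (0.0116) and the stricter filter (0.00834). It passed without replicate 1 of mimic145 (0.0384) or replicate 2 of mimic145 (0.0399), arrays outside the comparison that enter its estimate of the spread.

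FN1 measured 8.88, 9.17 and 9.18 in sirnaAGO2, and its log2 difference was -0.48 (95% interval -0.75 to -0.21; adjusted p = 0.0742, limma), with all 50 probes lower. The fall was largest in replicate 3, by -0.86, and the groups overlapped. It passed with the stricter filter (adjusted p = 0.0424, limma), and without replicate 3 it was -0.29.

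KRT18 measured 12.08, 12.29 and 12.41 in sirnaAGO2, overlapping cntrl, with a log2 difference of -0.19 (95% interval -0.32 to -0.06; adjusted p = 0.124, limma). EPCAM differed by -0.34 (95% interval -0.58 to -0.11; adjusted p = 0.123, limma), with no overlap between the groups, and passed with the stricter filter (-0.44, adjusted p = 0.0233). SNAI1 differed by -0.25 (95% interval -0.45 to -0.06; adjusted p = 0.164, limma) and TWIST1 by -0.25 (95% interval -0.73 to 0.23). ZEB2 differed by 0.16, ZEB1 by 0.04 and VIM by 0.01.

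**Figure D4:**
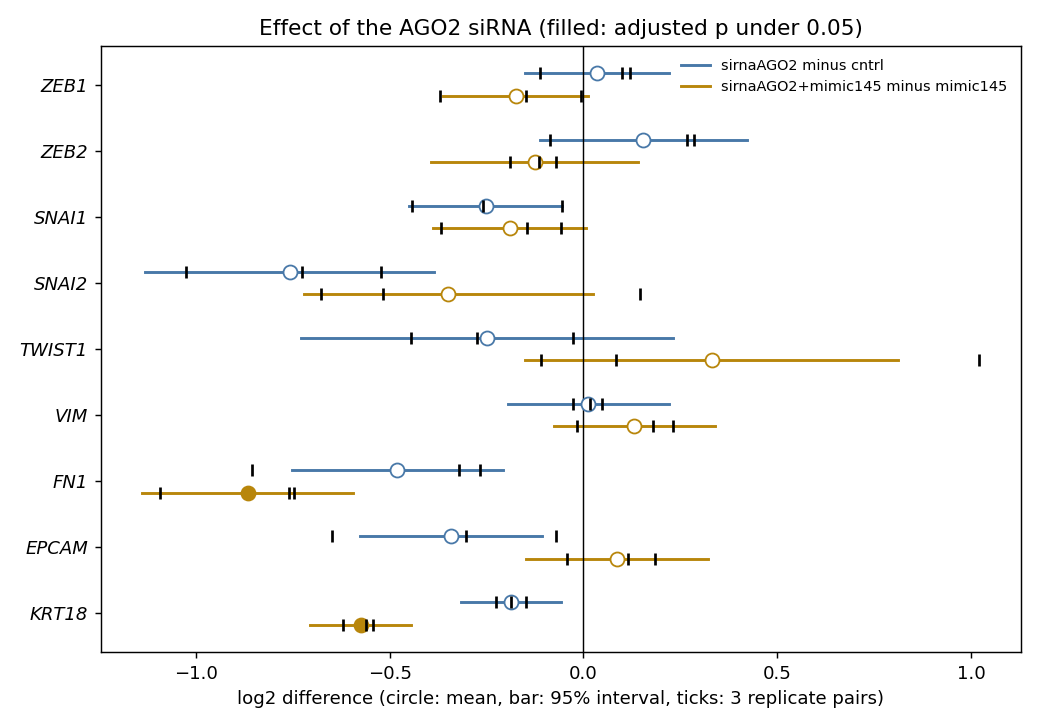
Log2 difference with the AGO2 siRNA for 9 genes, without the mimic (blue) and with it (yellow); circles are means, filled where the adjusted p was under 0.05, bars the 95% interval and ticks the 3 replicate pairs. FN1 and KRT18 are filled in yellow, at -0.87 and -0.57, and no blue circle is filled.

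The fourth comparison set sirnaAGO2+mimic145 against mimic145, that is, silencing in cells with the mimic. FN1 and KRT18 fell and the other 7 tested genes did not pass; 4.32% of all genes were called. FN1 measured 8.81, 9.24 and 9.37 in sirnaAGO2+mimic145, below all the mimic145 arrays. The fall averaged -0.87 ± 0.12 (SE; 95% interval -1.14 to -0.59; adjusted p = 0.00930, limma), and all 50 probes were lower. KRT18 measured 12.21, 12.41 and 12.50, also without overlap, a log2 difference of -0.57 ± 0.06 (SE; 95% interval -0.70 to -0.45; adjusted p = 0.00269, limma), with 12 of 13 probes lower. EPCAM differed by 0.09 (95% interval -0.15 to 0.32), and SNAI2 by -0.35 (95% interval -0.72 to 0.02). KRT8 fell too, with a log2 difference of -0.58 (95% interval -0.87 to -0.29; adjusted p = 0.0426, limma), close to the threshold. Its replicate pairs differed by -0.96, -0.21 and -0.56. Of its 13 probes 11 were lower, and the probe differences ran from -1.99 to 0.34. Without replicates 1, 2 or 3 the adjusted p was 0.167, 0.106 and 0.0872 for FN1 and 0.166, 0.0835 and 0.0872 for KRT18, and without the replicate block it was 0.173 for FN1 and 0.0747 for KRT18 (limma). With the arrays of these 2 groups alone, both had an adjusted p of 0.212 (limma), and the methods' t-test called 0 of the 9 after adjustment and 2 before it. Each of these 2 settings called 0 of all 18253 genes, and the t-test had 2216 of them at an unadjusted p under 0.05. SNAI2 passed with the stricter filter (-0.54, adjusted p = 0.0265, limma).

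On every slide the mimic array lay at the second position, so position and mimic cannot be told apart, and no slide held arrays of both siRNA arms, so slide and silencing cannot be told apart. Adding the slide as a random block beside the replicate block took FN1 out of the calls with the mimic (adjusted p = 0.0629, limma) and brought in SNAI2 with silencing (0.0459). The correlation within slides was estimated as negative, at -0.24. Over all genes, the calls went from 4121 to 3434 with the mimic in control cells and from 471 to 579 with silencing alone. The part of the negative estimate in the shifts of FN1 and SNAI2 was not tested. The comparison of mimic145 with cntrl shares its cntrl arrays with the third comparison. It shares its mimic145 arrays with the fourth, and they enter the first and the fourth with opposite sign. The rise of FN1 and KRT18 in the first and their fall in the fourth are therefore not separate results. The second shares with the fourth the sirnaAGO2+mimic145 arrays. The second and the third share the sirnaAGO2 arrays, which enter them with opposite sign.

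**Figure D5:**
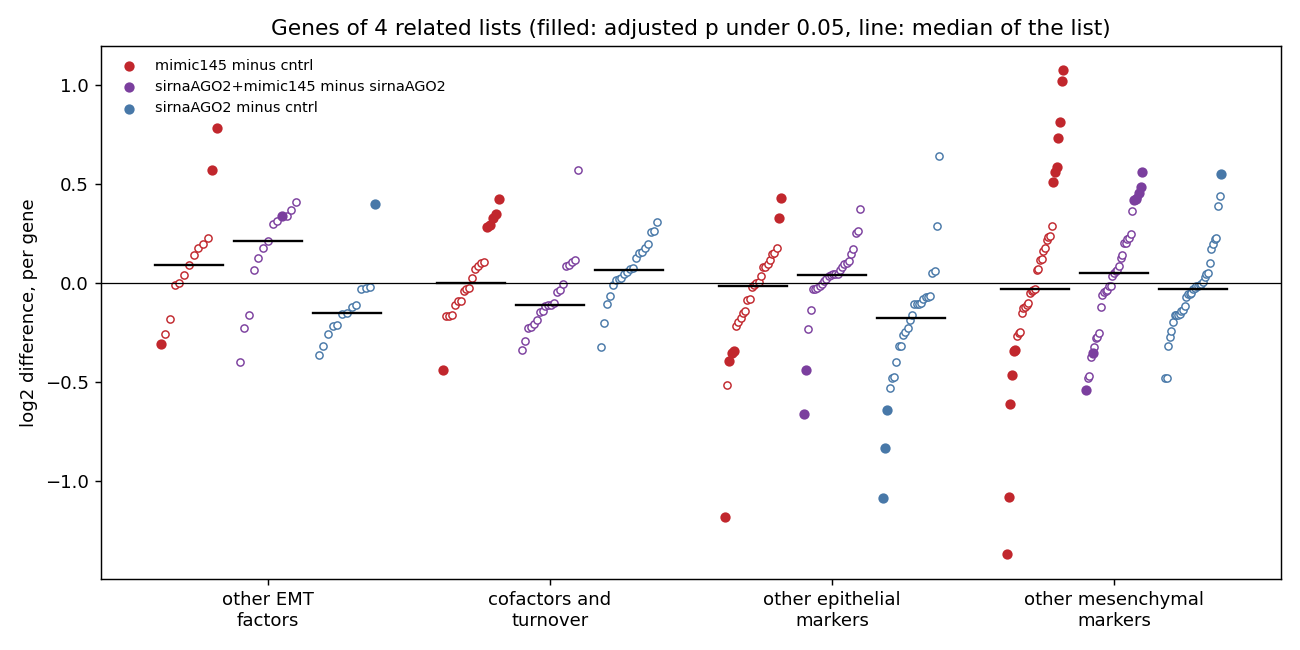
Log2 difference of each gene in 4 lists related to EMT, for the mimic in control cells (red), the mimic in silenced cells (purple) and silencing alone (blue); filled points passed and black lines are medians. Mesenchymal markers lie on both sides of 0 with the mimic, from TGFBI at -1.37 to TAGLN at 1.08.

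Around the 10 genes, 4 lists describe the rest of the program, and their counts stand beside the shares called over all genes, which were 22.6% and 7.28% with the mimic in control and silenced cells, 2.58% with silencing alone and 4.32% with silencing in cells with the mimic. With the mimic in control cells the called share of the epithelial markers (6 of 26), the other transcription factors (3 of 13) and the cofactors (6 of 20) was near or little above that background, so that these counts are no result about the lists. Of 35 other mesenchymal markers tested, 7 rose and 6 fell with the mimic in control cells, with a median log2 difference of -0.03, beside 0.01 over all genes. TAGLN, an actin-binding protein of smooth muscle cells, rose by 1.08 on the log2 scale (adjusted p = 0.000849, limma), from a mean of 6.82 to 7.90. TGFBI, a matrix protein induced by TGF-beta, fell by 1.37 (adjusted p = 0.000260, limma), and THBS1, thrombospondin, fell by 1.08 (0.000767). In silenced cells 5 rose and 2 fell with the mimic, among them CDH11, a cadherin of mesenchymal cells, at 0.46 (adjusted p = 0.0153, limma) and PDGFRB, a growth factor receptor of mesenchymal cells, at 0.48 (0.0283). With silencing alone FSTL1, a secreted glycoprotein, rose by 0.55 (0.0385) and no other passed, and with silencing in cells with the mimic 2 fell and none rose, with a median of 0.02.

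Of 26 other epithelial markers tested, 2 rose and 4 fell with the mimic in control cells, with a median log2 difference of -0.01. DSP, the desmosomal protein desmoplakin, fell by 1.18 on the log2 scale (adjusted p = 0.000103, limma), from a mean of 9.33 to 8.15. TJP1, a scaffold of tight junctions, rose by 0.43 (0.00502), and ELF3, an epithelial transcription factor, fell by 0.40 (0.0434). DSP also fell with the mimic in silenced cells, by 0.66 (0.00920), as did OCLN, the tight junction protein occludin, by 0.44 (0.0417), and the other 24 did not pass. With silencing alone DSP fell by 1.08 (0.00136), and KRT7, a keratin of simple epithelia, by 0.64 (0.0243). For silencing, 3 of 26 epithelial markers fell and none rose, with a median of -0.17 beside -0.03 over all genes. For silencing in cells with the mimic 7 fell and 1 rose, with a median of -0.07 beside 0.00 over all genes.

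Of 13 other EMT transcription factors tested, 2 rose and 1 fell with the mimic in control cells. Those that rose were FOXC1 (0.78) and OVOL2 (0.57), with 1 kept probe each and named after their values were seen. In silenced cells OVOL1, a repressor of the mesenchymal program, was the 1 gene that passed, at 0.34 (adjusted p = 0.0398, limma), and with silencing alone FOXC1 was, at 0.40 (0.0440). Of 20 cofactors and turnover factors of the SNAI and ZEB proteins, 5 rose and 1 fell with the mimic in control cells. HDAC1, a histone deacetylase in SNAI1 complexes, rose by 0.43 (0.00327), RCOR1, a corepressor, by 0.35 (0.0452), and PAK1, a kinase that phosphorylates SNAI1, fell by 0.44 (0.0150). None of the 20 passed in limma with the mimic in silenced cells, where 5 had an unadjusted p under 0.05, or with silencing alone, where 3 did. Over all 18253 genes, 5262 and 3466 had such a p in these 2 comparisons. With silencing in cells with the mimic 1 cofactor, HDAC1, fell, by 0.32 (adjusted p = 0.0415, limma). There 0 of the 13 transcription factors passed in limma, with 3 at an unadjusted p under 0.05, beside 3929 of all 18253 genes.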

How the data were processed

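Total RNA of MDA-MB-231 cells was labeled with a single dye and hybridized to SurePrint G3 Human Exon arrays by the authors, who read them with Feature Extraction 10.7.3.1. The deposited values are the processed intensity of each spot, corrected for background within the array, with flags for well above background and outliers. The authors' normalized log2 values, deposited for 217027 probes, served as an alternative. Control and outlier spots were left out here, and quantile normalization of the 12 arrays preceded the log2. Of 233164 probes, 209671 (89.9%) were assigned to genes through RefSeq transcripts, whose kept probes were averaged.

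Groups and replicate numbers came from the labels. limma's lmFit and eBayes were fitted with the replicate number as a block, following the paired test of the study's methods. Deviations of arrays from their group mean correlated at 0.148 to 0.576 for the 18 pairs with the same number, and at -0.497 to 0.201 for others. The fit was tested on simulated data. R 4.3.3, limma 3.58.1, data.table (1.17.8), Python 3.11.15, matplotlib 3.10.9 and pandas 2.3.3 were used.

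The members, the lists and the tests were chosen with earlier results of these data known. Named besides the members were AGO2, CDH1, CDH2, KRT8 and, per list and comparison, up to 3 called genes with the largest difference, at least 3 kept probes and the same direction in all 3 pairs; any other is marked, and some genes are not reported here. Alternatives changed the scaling (75th percentile), the background correction (normexp, offset 50), the values (those of the authors), the probe filter (none, or all 12 arrays), the summary (median), the block (none, or slide), the arrays fitted, and the test (the methods' t-test), or left out a replicate or an array.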

Additional observations from a re-analysis of the deposited data

How the results depend on the processing

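Over the members and AGO2, 1135 values kept their side of the threshold under an alternative (those without a call within the replicate spread), 58 lost a call, 27 gained one, 45 without a call moved by more than the replicate spread, and no called value turned around. The count with the mimic in control cells, 5, stayed between 4 and 6 except for 0 with the methods' t-test and 2 to 5 on leaving out replicates or arrays (2 without replicate 1). With the mimic in silenced cells, 0 became 1 with 75th percentile scaling, 2 with normexp, 2 with the authors' table, 2 with no filter and 1 with the stricter probe filter, and 0 to 1 on leaving out arrays. With silencing alone, 0 became 1 with 75th percentile scaling, normexp, the authors' table, the slide as a random block and only the arrays compared, 3 with the stricter probe filter, and 0 to 1 on leaving out arrays. With silencing in cells with the mimic, 2 became 0 with the methods' t-test and with only the arrays compared and 3 with the stricter probe filter, and ran from 0 (without each replicate number) to 2 (without each single array). The difference of mimic effects went from 0 to 1 with normexp and with the stricter probe filter, and stayed 0 on leaving out each replicate or array. The fall of AGO2 kept its size of -0.71 with the methods' t-test (adjusted p = 0.240). That test called 0 of all genes in every comparison. On leaving out arrays the fall of AGO2 ran from -0.78 to -0.64. In these cases the cause was not tested. Without the replicate block, the counts were 4, 0, 0, 0 and 0, so that both calls of silencing with the mimic were lost. With 75th percentile scaling the median of all genes was 0.11 for the mimic in silenced cells, beside 0.02.

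Signal over background limits TWIST1 and ZEB2, which had 0 of 2 and 2 of 10 probes well above background on every array. The same holds for CDH1 and CDH2, with 4 of 16 and 1 of 17 such probes.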
